A study of Arabidopsis thaliana with 3 samples.

Results

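The genes described here are 42 loci of *Arabidopsis thaliana* that act in DNA replication or in the S phase of the cell cycle. They were taken from the deposited table by a list of AGI locus numbers, with no threshold on measured values, though the list was drawn up with earlier results of these data known. They are 42 of the 33559 loci in the table. Poly(A) RNA from whole seedlings was sequenced in 3 libraries, 1 for each genotype, all in the Col ecotype: the wild type (Col), *mms19-1*, and *abo4*. *mms19-1* is a T-DNA insertion line in *MMS19*, which encodes a protein of cytosolic iron-sulfur cluster assembly, and *abo4* carries the weak missense allele *abo4-1* of *ABO4* (AT1G08260), which encodes the catalytic subunit of DNA polymerase ε. The labels and the study's methods name *mms19-1*, while its text names *mms19-2* in 1 place for the same sequencing. All seedlings were 14 days old and untreated, and grew on MS medium at 22°C with 16 h of light and 8 h of dark after 3 days at 4°C. With a single library per genotype, differences could not be checked against replicates, so no p-value is given and each interval below covers counting error only.

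Before S phase, the origin recognition complex (ORC) recruits CDC6 and CDT1, which load the MCM2-7 helicase on DNA. CDC45 then joins the helicase, DNA polymerases α, δ, and ε copy the strands with the sliding clamp PCNA, ribonucleotide reductase and thymidine kinase supply deoxynucleotides, and CAF-1 places histones on the new DNA. In plants, as in animals, E2F factors activate many of these genes, and the retinoblastoma protein RBR1 holds E2F factors back.

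The values are FPKM (fragments scaled to transcript length and to the number of mapped reads), so levels can be compared between genes. Estimated depth was 56046000 reads for the wild type, 51338000 reads for *mms19-1*, and 49629000 reads for *abo4*. The level of *MMS19* (AT5G48120) was 10.1 FPKM in the wild-type library, 0.228 in *mms19-1*, and 9.01 FPKM in *abo4*, so the library labelled *mms19-1* is low in the gene its label names. All 42 genes were above 0, and 40 of them had a mean of at least 1 FPKM. The exceptions were *ORC1A* (AT4G14700) and *POL2B* (AT2G27120). In bulk seedlings, more cells in S phase and more RNA per cell cannot be told apart.

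**Figure D1:**
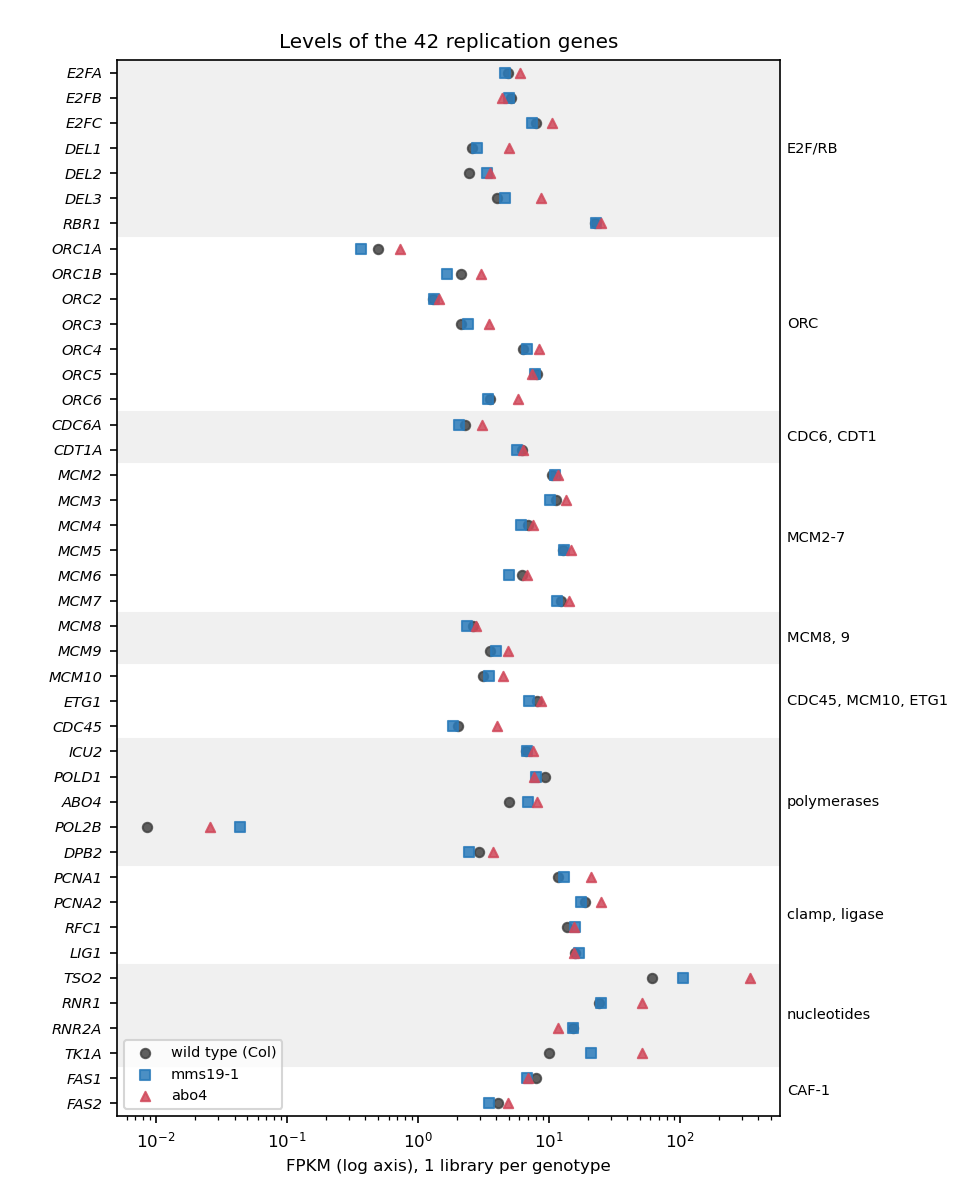
FPKM of the 42 replication genes on a log axis, grouped by role, with 1 point for each library (circle, wild type; square, *mms19-1*; triangle, *abo4*). The *abo4* triangle lies farthest to the right for 34 of the 42 genes, a count not made over all loci. The widest gap among the well-expressed genes is at *TSO2*.

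The E2F-type motif is shown first, because it is a sequence feature that many of the 42 promoters share. The list of genes was not drawn up by motif. The motif was searched because replication genes are known E2F targets, so its share among them is not an independent finding. Each promoter was taken from 250 bases before to 50 bases after the gene start in the TAIR10.1 genome (RefSeq annotation). Both strands were searched for TTTCCCGC, TTTCCCGG, TTTCGCGC, TTTCGCGG, TTTGCCGC, TTTGCCGG, TTTGGCGC, and TTTGGCGG. A match was found in 20 of the 42 promoters (47.6%), beside 3.59% of the 27443 protein-coding promoters on the nuclear chromosomes and 3.71% of the promoters of well-expressed genes (mean of at least 1 FPKM). The most frequent form was TTTCCCGC, in 13 of the 42. The 4 sequences below are the last 100 bases before the start of genes with a match, 5′ to 3′ on the strand of the gene, with the matched bases in capitals. In *ORC3*, a TTTCCCGC on the strand of the gene and a TTTGGCGG on the other strand overlap and are printed as 1 run of capitals. In *MCM6*, the match is on the other strand.
*MCM2* (AT1G44900, + strand, chr1:16970114-16970213): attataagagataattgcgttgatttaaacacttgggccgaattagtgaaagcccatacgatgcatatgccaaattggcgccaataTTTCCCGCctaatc
*MCM6* (AT5G44635, - strand, chr5:18010668-18010767): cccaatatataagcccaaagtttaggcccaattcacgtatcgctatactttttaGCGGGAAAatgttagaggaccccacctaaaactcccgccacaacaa
*ORC3* (AT5G16690, + strand, chr5:5474266-5474365): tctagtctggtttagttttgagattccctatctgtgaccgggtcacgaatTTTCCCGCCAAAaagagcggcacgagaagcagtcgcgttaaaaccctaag
*CDC45* (AT3G25100, + strand, chr3:9143816-9143915): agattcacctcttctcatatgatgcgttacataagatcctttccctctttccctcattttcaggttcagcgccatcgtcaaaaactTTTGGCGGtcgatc

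The next 3 sequences come from the genes with the 3 largest log2 ratios of FPKM + 0.1 in *abo4*. None of the 8 forms was found in their promoters, so no base is in capitals. *RNR1*, next in this order with a log2 ratio of 1.08 beside 1.09 for *DEL3*, had 3 matches and is not printed.
*TSO2* (AT3G27060, - strand, chr3:9981621-9981720): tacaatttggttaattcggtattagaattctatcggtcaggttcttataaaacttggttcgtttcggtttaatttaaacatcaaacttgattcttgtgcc
*TK1A* (AT3G07800, - strand, chr3:2491181-2491280): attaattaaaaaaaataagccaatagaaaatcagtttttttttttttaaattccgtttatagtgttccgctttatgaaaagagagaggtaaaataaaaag
*DEL3* (AT3G01330, - strand, chr3:126877-126976): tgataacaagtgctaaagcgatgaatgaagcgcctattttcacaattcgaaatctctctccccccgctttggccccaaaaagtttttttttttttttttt

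To compare *abo4* with the wild type, log2 ratios were computed with 0.1 FPKM added to each value, and a gene was counted as higher or lower past 2-fold. Of the 42 genes, 4 were more than 2-fold higher in *abo4* (*TSO2*, *TK1A*, *DEL3*, and *RNR1*), and none was more than 2-fold lower. Among all 26416 loci above 0, 3.87% were more than 2-fold higher and 2.58% lower. Among the 19771 loci with a mean of at least 1 FPKM, the shares were 1.92% higher and 1.90% lower. Past 1.5-fold, 10 of the 40 well-expressed replication genes were higher and none was lower, beside 5.27% and 5.56% of these loci. The 6 genes added at this limit were *CDC45*, *DEL1* (AT3G48160), *PCNA1* (AT1G07370), *ORC6* (AT1G26840), *ABO4*, and *ORC3*. By any amount, 34 of the 40 were higher, beside 47.9% of the loci. The median log2 ratio of the 42 genes was 0.28 (1.21-fold), and the median of the 19771 loci was -0.01. The counting interval of the ratio lay above 1 for 29 of the 40 well-expressed genes and below 1 for 4. Among the 19618 loci of this kind with a read estimate, it lay above 1 for 27.4% and below 1 for 30.7%, so an interval that leaves out 1 is common at this depth.

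In *mms19-1*, 1 of the 42 genes was more than 2-fold higher than in the wild type (*TK1A*) and none was lower, beside 2.38% and 1.64% of all loci above 0. Among loci with a mean of at least 1 FPKM, 1.03% were more than 2-fold higher and 0.804% lower. Past 1.5-fold, 2 of the 40 well-expressed genes were higher (*TSO2* and *TK1A*) and none was lower, where 2.51% of the loci were higher and 2.54% lower. By any amount, 20 of these 40 were higher, beside 44.9% of the loci. The median log2 ratio of the 42 genes was -0.01, and that of the loci was -0.02. The interval lay above 1 for 6 of the 40 and below 1 for 8, beside 19.6% and 25.1% of the loci. Both comparisons use the same wild-type library.

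*abo4* was also compared with *mms19-1* directly. Here 4 of the 42 genes were more than 2-fold higher in *abo4* (*TSO2*, *TK1A*, *CDC45*, and *RNR1*) and none was lower, beside 3.60% and 3.26% of all loci above 0. Among the loci with a mean of at least 1 FPKM, 2.09% were higher and 2.31% lower at this limit. Of the 40 well-expressed genes, 9 were more than 1.5-fold higher and none was lower, beside 6.23% and 5.86% of these loci. The interval lay above 1 for 30 of the 40 and below 1 for 2, beside 30.3% and 28.4% of the loci with a read estimate. The median log2 ratio of the 42 genes was 0.31, where the loci had 0.01, so the 2 columns lie on nearly the same scale whether or not they were scaled together.

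**Figure D2:**
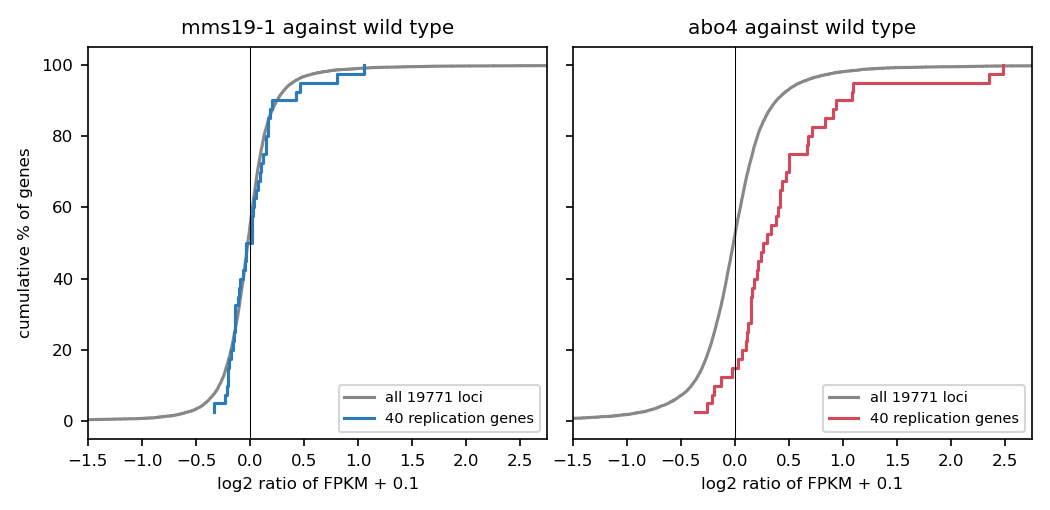
Cumulative share of genes (vertical axis, %) by log2 ratio of FPKM + 0.1 to the wild type (horizontal axis) for the 40 replication genes at or above a mean of 1 FPKM (coloured) and all 19771 such loci (grey). In *mms19-1* the coloured line runs along the grey line except for *TSO2* and *TK1A* at its upper end. In *abo4* it lies to the right of the grey line over most of its length, and 34 of the 40 genes are above 0.

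Of the genes of nucleotide supply, *TSO2* and *TK1A* had the 2 largest log2 ratios of FPKM + 0.1 among all 42 genes in both mutants. *TSO2*, which encodes a small subunit of ribonucleotide reductase, had 61.5 FPKM in the wild-type library, 107 in *mms19-1*, and 345 FPKM in *abo4*. It was the most abundant of the 42 genes in every library. Its FPKM was 5.60-fold the wild-type value in *abo4* (interval 5.44 to 5.78), 1.74-fold in *mms19-1* (1.68 to 1.81), and 3.21-fold higher in *abo4* than in *mms19-1* (3.13 to 3.29). By log2 ratio in *abo4*, *TSO2* ranked 63rd from the top of the 19771 loci.

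*TK1A* encodes thymidine kinase, which phosphorylates thymidine for reuse. Its level was 10.1 FPKM in the wild-type library, 21.1 in *mms19-1*, and 51.8 FPKM in *abo4*. As for *TSO2*, *abo4* was highest and the wild type lowest, an order found for 17 of the 42 genes. Another 17 had *abo4* highest and *mms19-1* lowest, and these orders were not counted over all loci. For *TK1A*, the intervals of both ratios to the wild type lay above 1. The *abo4* library was at 5.14-fold the wild type (4.74 to 5.57) and *mms19-1* at 2.09-fold (1.91 to 2.29). *TK1A* ranked 73rd of the 19771 loci in *abo4* and 186th in *mms19-1*, where *TSO2* ranked 283rd.

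*RNR1* (AT2G21790) encodes the large subunit of ribonucleotide reductase. Its values were 24.4 FPKM in the wild-type library, 25.3 in *mms19-1*, and 51.6 FPKM in *abo4*. Only the *abo4* library stood apart, at 2.12-fold the wild type (2.04 to 2.20), and the interval in *mms19-1*, 0.992 to 1.09, held 1. *RNR2A* (AT3G23580), a second small-subunit gene, had 15.3, 15.5, and 11.8 FPKM in the wild type, *mms19-1*, and *abo4*. Its level in *abo4* was 0.774-fold that of the wild type (0.709 to 0.844), the lowest ratio of the 42 genes in this mutant. Of the exonic bases of *RNR2A*, 9.05% lie in AT3G23570 on the opposite strand, which had 27.0, 29.0, and 26.8 FPKM. Within a library, the level of *TSO2* was 4.02 times that of *RNR2A* in the wild type, 6.93 times in *mms19-1*, and 29.2 times in *abo4*. *TSO2* and *RNR2A* are 67.6% identical in their coding sequence and share no stretch of 45 bases, the length of the reads.

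Summed over the 42 genes, the levels added up to 370.5 FPKM in the wild-type library, 426.5 in *mms19-1*, and 774 FPKM in *abo4*. Without *TSO2* and *TK1A*, the sums of the other 40 were 299 FPKM, 298 FPKM, and 377 FPKM. *TSO2* and *TK1A* thus make up the whole gap in summed level between *mms19-1* and the wild type, and for most of that between *abo4* and the wild type.

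**Figure D3:**
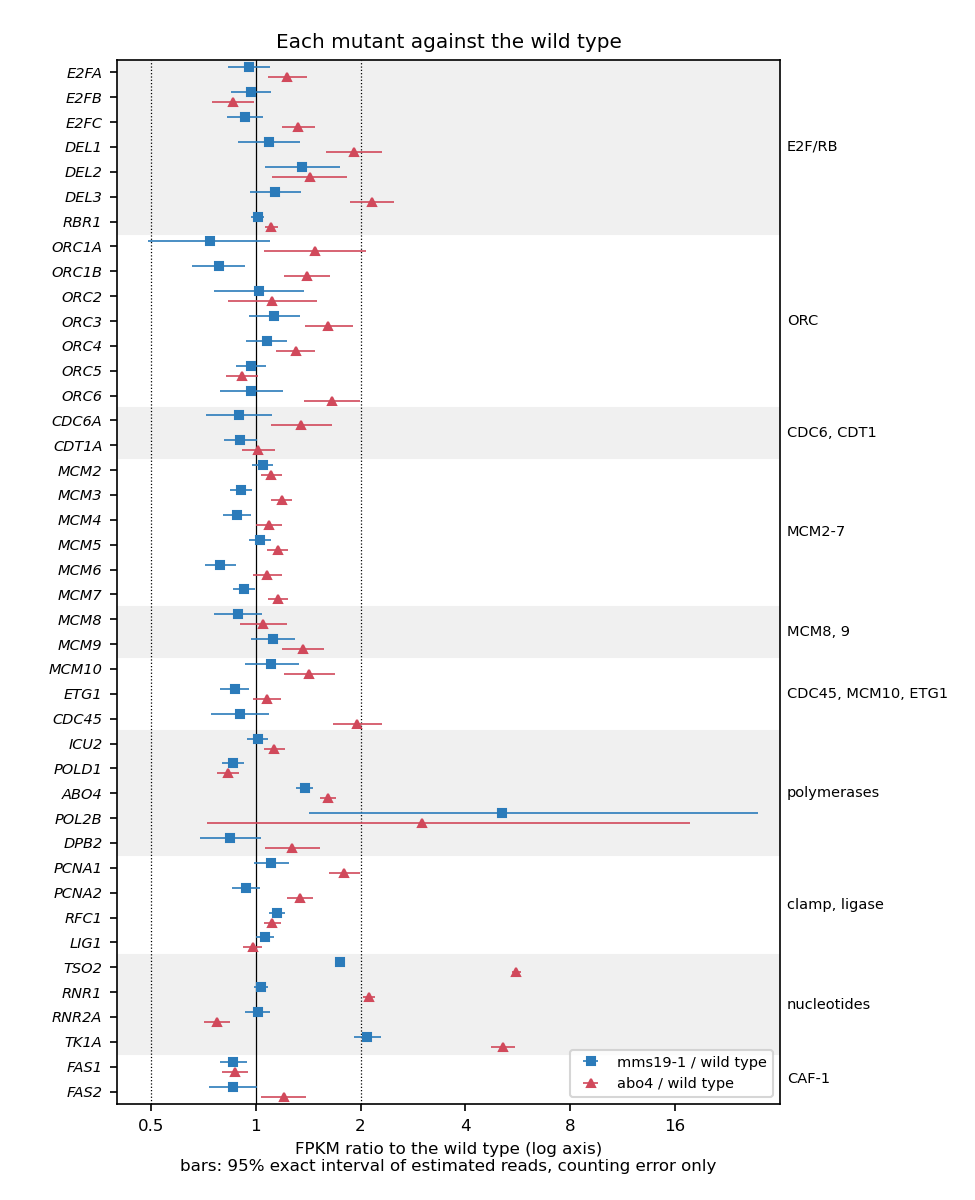
FPKM ratio to the wild type (log axis) for each of the 42 genes in *mms19-1* (squares) and *abo4* (triangles), with bars for the 95% exact interval of the estimated reads, which covers counting error only, and dotted lines at 0.5 and 2. *TSO2* and *TK1A* lie past 5-fold in *abo4*, and the MCM2-7 genes lie close to 1 in both mutants.

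Among the E2F and RBR genes, *DEL3* had the largest ratio in *abo4*. DEL proteins bind E2F sites without a dimerization partner and act as repressors. *DEL3* had 4.05 FPKM in the wild-type library, 4.62 in *mms19-1*, and 8.76 FPKM in *abo4*, so that *abo4* was at 2.16-fold the wild type (1.86 to 2.50) and *mms19-1* at 1.14-fold (0.962 to 1.35). With 1 FPKM added to each value in place of 0.1, *DEL3* was not past 2-fold in *abo4*, nor was *TK1A* in *mms19-1* or *CDC45* in *abo4* against *mms19-1*. *DEL1*, a repressor of the entry into endoreduplication, had 2.62, 2.86, and 5.01 FPKM in the same order. Its *abo4* level was 1.91-fold that of the wild type (1.59 to 2.30). *DEL2* (AT5G14960) was at 1.36-fold the wild type in *mms19-1* (1.07 to 1.75), the largest ratio of this group there, and at 1.43-fold in *abo4* (1.12 to 1.83).

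The activating factor *E2FB* (AT5G22220) had 5.13 FPKM in the wild-type library, 4.98 in *mms19-1*, and 4.42 FPKM in *abo4*, the lowest ratio of the group in *abo4* (0.862-fold, 0.749 to 0.991). *E2FA* (AT2G36010) and *E2FC* (AT1G47870), which acts mainly as a repressor, were at 1.23-fold and 1.33-fold in *abo4*. *E2FC* had the lowest ratio of the group in *mms19-1*, at 0.933-fold (0.830 to 1.05). *RBR1* (AT3G12280) had 22.8, 23.1, and 25.3 FPKM in the 3 libraries in this order, within 1.11-fold of the wild type. All 7 regulators were within 2-fold of the wild type in both mutants except *DEL3* in *abo4*.

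Of the 7 ORC genes, 6 were higher in *abo4* than in the wild type, with a median log2 ratio of 0.47, and 2 of them were past 1.5-fold. The shares higher among the well-expressed loci were 47.9% by any amount and 5.27% past 1.5-fold. *ORC6* had 3.55 FPKM in the wild-type library, 3.45 in *mms19-1*, and 5.88 FPKM in *abo4*, at 1.66-fold the wild type in *abo4* (1.38 to 1.99). *ORC3* had 2.16, 2.44, and 3.49 FPKM, at 1.62-fold in *abo4* (1.38 to 1.90) and 1.13-fold in *mms19-1* (0.954 to 1.34). *ORC5* (AT4G29910) was the exception, with 8.12, 7.86, and 7.41 FPKM and an *abo4* interval of 0.824 to 1.01 that held 1.

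*ORC1A* and *ORC1B* (AT4G12620) encode near-identical copies of the largest ORC subunit. *ORC1A* had 0.498 FPKM in the wild-type library, 0.368 in *mms19-1*, and 0.735 FPKM in *abo4*, and *ORC1B* had 2.16, 1.69, and 3.03 FPKM. For both, *mms19-1* was the lowest library and *abo4* the highest. The *ORC1B* interval in *mms19-1* was 0.658 to 0.932, and that of *ORC1A* was 0.492 to 1.10. Their coding sequences are 91.8% identical with 86 shared stretches of 45 bases, so reads may be split between them, and 36.3% of the exonic bases of *ORC1A* lie in 2 genes on the opposite strand, a long noncoding RNA (AT4G06210) and AT4G14710. *ORC2* (AT2G37560) and *ORC4* (AT2G01120) were at 1.12-fold and 1.31-fold in *abo4*.

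Of the licensing factors, *CDC6A* (AT2G29680) had 2.29 FPKM in the wild-type library, 2.06 in *mms19-1*, and 3.10 FPKM in *abo4*. The *abo4* level was 1.35-fold that of the wild type (1.11 to 1.66), and the *mms19-1* level was 0.898-fold (0.719 to 1.12). *CDT1A* (AT2G31270) had 6.31, 5.70, and 6.43 FPKM, and both of its intervals held 1 (0.809 to 1.01 in *mms19-1*, 0.914 to 1.14 in *abo4*).

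The genes of the MCM2-7 helicase differed little. In *abo4*, the 6 genes were between 1.08-fold (*MCM6*) and 1.19-fold (*MCM3*, AT5G46280) of the wild type, all of them higher by a small amount, with a median log2 ratio of 0.18. By any amount, 47.9% of the well-expressed loci were higher in *abo4*. In *mms19-1* the 6 genes were between 0.792-fold (*MCM6*) and 1.05-fold (*MCM2*), with a median of -0.12. *MCM6* had 6.32 FPKM in the wild-type library, 5.01 in *mms19-1*, and 6.83 FPKM in *abo4*. Its interval in *mms19-1*, 0.714 to 0.877, lay below 1, and its interval in *abo4*, 0.982 to 1.19, held 1. *MCM3* had 11.3, 10.3, and 13.5 FPKM, with an *abo4* interval of 1.11 to 1.27. *MCM2* had 10.6, 11.1, and 11.8 FPKM, and *MCM4* (AT2G16440), *MCM5* (AT2G07690), and *MCM7* (AT4G02060) were at 1.09-fold, 1.16-fold, and 1.16-fold in *abo4*. No gene of the 6 was past 1.5-fold in either mutant.

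*MCM8* (AT3G09660) and *MCM9* (AT2G14050), helicase relatives outside the MCM2-7 ring, were at 1.05-fold (0.900 to 1.23) and 1.36-fold (1.19 to 1.57) of the wild type in *abo4*. In *mms19-1* they were at 0.891-fold (0.758 to 1.04) and 1.12-fold (0.973 to 1.30). The FPKM of *MCM8* was 2.67, 2.38, and 2.80 in the wild type, *mms19-1*, and *abo4*, and that of *MCM9* was 3.57, 4.00, and 4.87. The *abo4* library was the highest of the 3 for both genes.

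*CDC45* differed more than the helicase that its protein activates. It had 2.05 FPKM in the wild-type library, 1.85 in *mms19-1*, and 4.02 FPKM in *abo4*. The *abo4* level was 1.96-fold that of the wild type (1.67 to 2.31) and 2.17-fold that of *mms19-1* (1.83 to 2.58), and the wild type and *mms19-1* were not separated by counting error (0.745 to 1.09). *MCM10* (AT2G20980), which binds the helicase and helps to start replication, had 3.17, 3.52, and 4.52 FPKM, at 1.43-fold in *abo4* (1.21 to 1.69) and 1.11-fold in *mms19-1* (0.931 to 1.33). *ETG1* (AT2G40550), which encodes an MCM-binding protein, had 8.11, 7.05, and 8.74 FPKM, at 1.08-fold in *abo4* (0.983 to 1.18) and 0.870-fold in *mms19-1* (0.790 to 0.957).

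Among the polymerases, *ABO4* itself was higher in both mutants. Its level was 5.03 FPKM in the wild-type library, 6.95 in *mms19-1*, and 8.09 FPKM in *abo4*. *abo4* was at 1.61-fold the wild type (1.53 to 1.70) and *mms19-1* at 1.38-fold (1.31 to 1.46), and *abo4* was 1.16-fold higher than *mms19-1* (1.11 to 1.22). Because *abo4-1* is a missense allele, the level of the transcript does not check the label. Of the exonic bases of *ABO4* (chr1:2588854-2606892, + strand), 24.4% lie in 2 genes on the opposite strand. The first, AT1G08250, had 10.0, 10.2, and 9.78 FPKM in the wild type, *mms19-1*, and *abo4*, and the other, AT1G08270, had 6.48, 7.54, and 8.39 FPKM. The sources used here do not say that counting used strand, so reads of these genes cannot be told apart in the overlap.

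*POLD1* (AT5G63960), the catalytic subunit gene of polymerase δ, was lower in both mutants, with 9.33 FPKM in the wild-type library, 8.02 in *mms19-1*, and 7.78 FPKM in *abo4*. Its ratios were 0.859-fold (0.800 to 0.923) in *mms19-1* and 0.833-fold (0.775 to 0.896) in *abo4*. *ICU2* (AT5G67100), the catalytic subunit gene of polymerase α, had 6.70, 6.79, and 7.58 FPKM, at 1.13-fold in *abo4* (1.06 to 1.21). Of the exonic bases of *ICU2*, 15.0% lie in AT5G67110 on the opposite strand, which had 7.14, 9.80, and 8.65 FPKM. *DPB2* (AT5G22110), the second subunit of polymerase ε, had 2.94, 2.49, and 3.74 FPKM, at 1.27-fold in *abo4* (1.07 to 1.53) and 0.847-fold in *mms19-1* (0.692 to 1.04).

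*POL2B*, the second copy of the polymerase ε catalytic subunit gene, was near 0 in all 3 libraries. Its values of 0.00861, 0.0438, and 0.0259 FPKM stand for about 3, 14, and 8 reads, in this order. The ratios to the wild type were 5.09-fold (1.42 to 27.6) in *mms19-1* and 3.01-fold (0.723 to 17.6) in *abo4*. *POL2B* is 89.8% identical to *ABO4* in its coding sequence and shares 120 stretches of 45 bases with it, so reads in these stretches cannot be told apart.

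The sliding clamp has 2 genes, and their levels differed unequally. *PCNA1* had 11.8 FPKM in the wild-type library, 13.1 in *mms19-1*, and 21.1 FPKM in *abo4*, and *PCNA2* (AT2G29570) had 18.8, 17.6, and 25.2 FPKM. In *abo4*, *PCNA1* was at 1.80-fold the wild type (1.62 to 1.99) and *PCNA2* at 1.34-fold (1.23 to 1.46). In *mms19-1*, *PCNA2* was at 0.937-fold (0.856 to 1.03). The level of *PCNA1* relative to *PCNA2* was 0.625, 0.740, and 0.837 in the 3 libraries, in the same order. These genes share no stretch of 45 bases, but 23.6% of the exonic bases of *PCNA2* lie in another gene.

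*RFC1* (AT5G22010), the large subunit of the clamp loader, had 13.9, 16.0, and 15.5 FPKM, and its ratios of 1.15-fold in *mms19-1* (1.09 to 1.22) and 1.12-fold in *abo4* (1.06 to 1.18) were alike. *LIG1* (AT1G08130), which joins Okazaki fragments, had 15.9, 17.0, and 15.6 FPKM, with an *abo4* interval of 0.923 to 1.04 that held 1. Of the CAF-1 genes, *FAS1* (AT1G65470) had 7.98, 6.90, and 6.96 FPKM, lower in both mutants at 0.864-fold in *mms19-1* (0.792 to 0.943) and 0.872-fold in *abo4* (0.800 to 0.953). *FAS2* (AT5G64630) had 4.08, 3.52, and 4.92 FPKM, at 0.862-fold in *mms19-1* (0.734 to 1.01) and 1.20-fold in *abo4* (1.04 to 1.39).

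Over all 42 genes, the highest value was in *abo4* for 34, in the wild type for 4, and in *mms19-1* for 4. The lowest value was in the wild type for 19, in *mms19-1* for 18, and in *abo4* for 5. These counts were not made over all loci, so they have no background share beside them. *TSO2*, *TK1A*, *RNR1*, *DEL3*, and *CDC45* have at most 0.177% of their exonic bases in another gene, so overlapping genes do not enter their values beyond this.

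Ratios of genes with and without an E2F-type match are given as a description. The 20 genes with a match had a median log2 ratio of 0.23 in *abo4*, with 1 of them past 2-fold (*RNR1*), and the 22 genes without a match had 0.41, with 3 past 2-fold (*TSO2*, *TK1A*, and *DEL3*). In *mms19-1* the medians were -0.09 and 0.06. Of the 10 genes past 1.5-fold in *abo4*, 4 had a match (*RNR1*, *CDC45*, *ORC6*, and *ORC3*), and of the 6 MCM2-7 genes, 5 had one. In *CDC45* the printed match starts 14 bases before the gene start and a second match, to TTTGCCGG on the other strand, starts 28 bases after it. A second motif, CTTNNNNNNNAAG, which reads the same on both strands and whose matches here overlapped no E2F-type match, was chosen after the values were seen. It is the sequence that the DNA damage factor SOG1 is known to bind in *Arabidopsis*. It was found in 3 of the 42 promoters (7.14%; *MCM5*, *CDT1A*, and *RNR1*), beside 11.8% of all promoters. A match is a description of letters in the window, and a missing match says nothing of the factor.

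**Figure D4:**
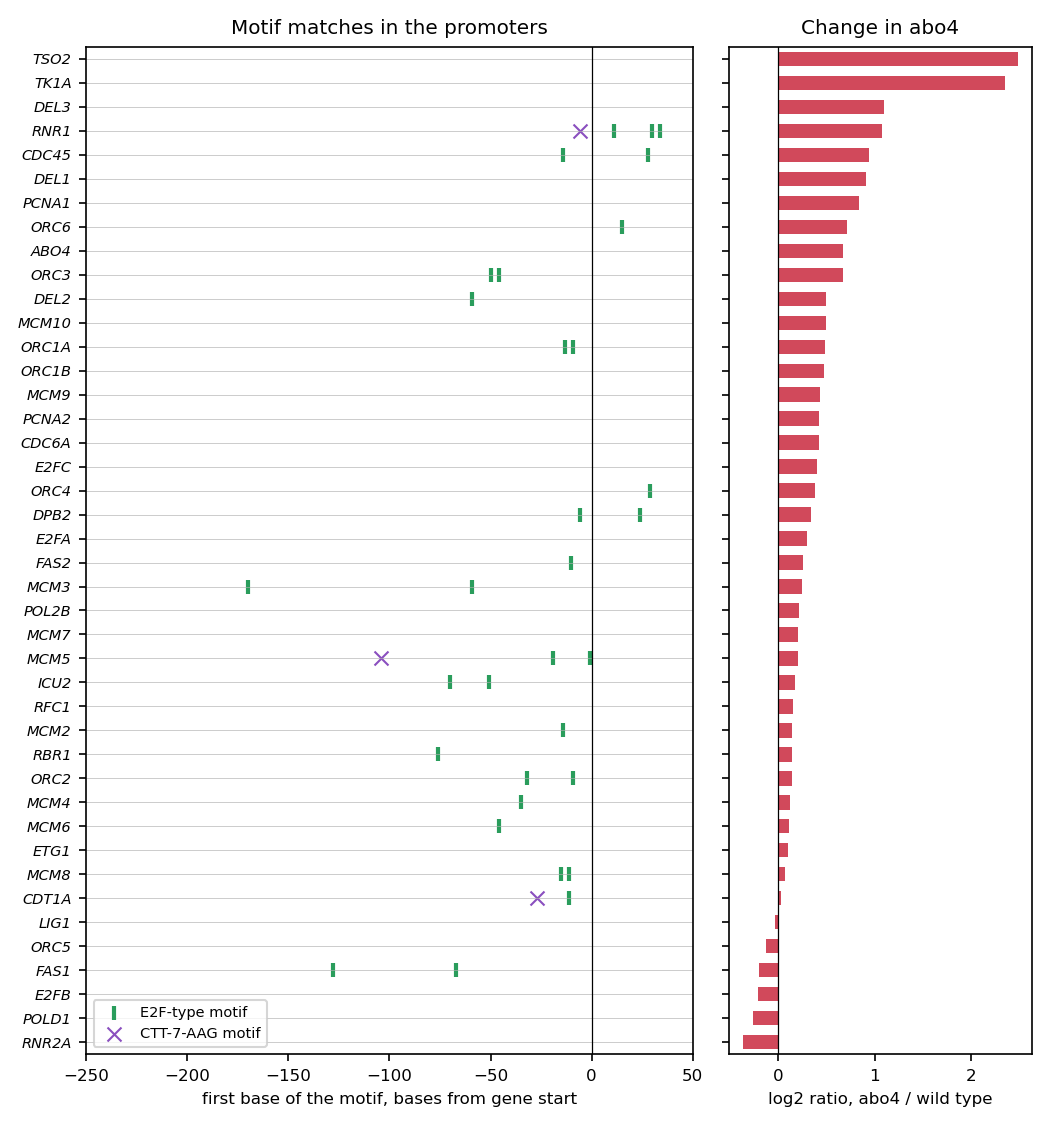
Left, first base of each motif match in bases from the gene start, for the 42 promoters ordered by log2 ratio in *abo4* (vertical bars, E2F-type motif; crosses, CTT-7-AAG motif). Right, log2 ratio of FPKM + 0.1 in *abo4* to the wild type. The E2F-type matches are spread along the order, and *TSO2*, *TK1A*, and *DEL3* at its top have none.

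Another 40 replication genes outside the 42 were listed, among them GINS, clamp loader, polymerase, and replication protein A (RPA) subunits, genes of nucleotide supply, licensing factors, and E2F dimerization partners. Past 2-fold, 3 of these 40 genes were higher in *abo4* and none was lower, and 9 were past 1.5-fold, with a median log2 ratio of 0.11. Of the well-expressed loci, 1.92% were more than 2-fold higher in *abo4* and 5.27% more than 1.5-fold. By any amount, 23 of the 40 were higher in *abo4* and 17 lower, beside 47.9% of the well-expressed loci higher. RPA coats single-stranded DNA, and its large-subunit gene *RPA1E* (AT4G19130) had 1.84 FPKM in the wild-type library, 3.18 in *mms19-1*, and 6.85 FPKM in *abo4*. *RPA1D* (AT5G61000) had 8.03, 6.92, and 16.4 FPKM, high only in *abo4*. *RNR2B* (AT5G40942), a ribonucleotide reductase small-subunit copy that RefSeq lists as a transcribed pseudogene, had 1.39, 1.37, and 3.44 FPKM. In *mms19-1*, none of the 40 was past 2-fold in either direction, and the median was -0.08. By any amount, 11 of the 40 were higher in *mms19-1* and 29 lower, beside 44.9% of the well-expressed loci higher. *TK1B* (AT5G23070), the second thymidine kinase gene, had 14.0, 18.0, and 13.9 FPKM and so was highest in *mms19-1*.

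Genes of mitosis and of the tissues in the seedlings were set beside the replication genes. All 10 mitotic genes were higher in *abo4* by some amount, 1 of them past 2-fold (*CDKB1;1*, AT3G54180, with 6.35, 7.18, and 15.0 FPKM) and 4 past 1.5-fold, and their summed level was 117 FPKM in the wild-type library, 119 in *mms19-1*, and 166 FPKM in *abo4*. Of the well-expressed loci, 47.9% were higher in *abo4* by any amount, 1.92% past 2-fold, and 5.27% past 1.5-fold. The 5 shoot meristem markers summed to 19.9, 19.1, and 27.1 FPKM, with 1 past 2-fold in *abo4* (*CUC2*, AT5G53950, at 0.187, 0.123, and 0.550 FPKM), and with *WUS* (AT2G17950) and *CLV3* (AT2G27250) listed at 0 or below 0.1 FPKM in every library. Floral identity genes were more than 2-fold higher for 7 of 8 in each mutant, with sums of 14.2, 32.8, and 34.6 FPKM. Over all loci above 0, the shares past this limit were 3.87% in *abo4* and 2.38% in *mms19-1*. The floral gene with the largest log2 ratio in *abo4*, *SEP2* (AT3G02310), had 0.0147, 1.53, and 2.21 FPKM, and its wild-type value stands for about 1 read. In *mms19-1* the largest was that of *SEP1* (AT5G15800), with 0.134, 4.15, and 2.46 FPKM. None of the 8 leaf markers and 1 of the 8 root markers (*NRT2.1*, AT1G08090, at 0.0736, 0.0918, and 0.534 FPKM) was past 2-fold in *abo4*, and no member of either list was in *mms19-1*. By any amount, 6 of the 8 leaf, 5 of the 8 root, and 4 of the 5 shoot meristem markers were higher in *abo4*, beside 47.9% of the well-expressed loci. The median log2 ratios of these 3 lists in *abo4* were 0.21, 0.14, and 0.38, beside 0.28 for the 42 replication genes. *WUS*, counted as higher in *abo4*, rests on about 1 read in that library and about 1 in the wild type. In *mms19-1*, 6 of the 8 leaf, 5 of the 8 root, and 0 of the 5 shoot meristem markers were higher, beside 44.9% of the well-expressed loci. The leaf gene with the largest ratio, *RBCS2B* (AT5G38420), was at 1.38-fold in *abo4*. None of the 6 reference genes was past 2-fold in either mutant, and the largest ratio was 1.30-fold (*GAPC1*, AT3G04120, in *abo4*). The part of these tissues and of dividing cells in the replication gene values was not tested.

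Genes of the DNA damage response, which in plants is led by SOG1, were higher in both mutants. Of 9 such genes, 8 were more than 2-fold higher in *abo4* (median log2 ratio 2.16) and 6 in *mms19-1* (median 1.35). The shares among the well-expressed loci were 1.92% in *abo4* and 1.03% in *mms19-1*. The largest ratio in both was that of *SMR7* (AT3G27630), a cell cycle inhibitor gene, with 3.31 FPKM in the wild-type library, 31.0 in *mms19-1*, and 97.3 FPKM in *abo4*.

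**Figure D5:**
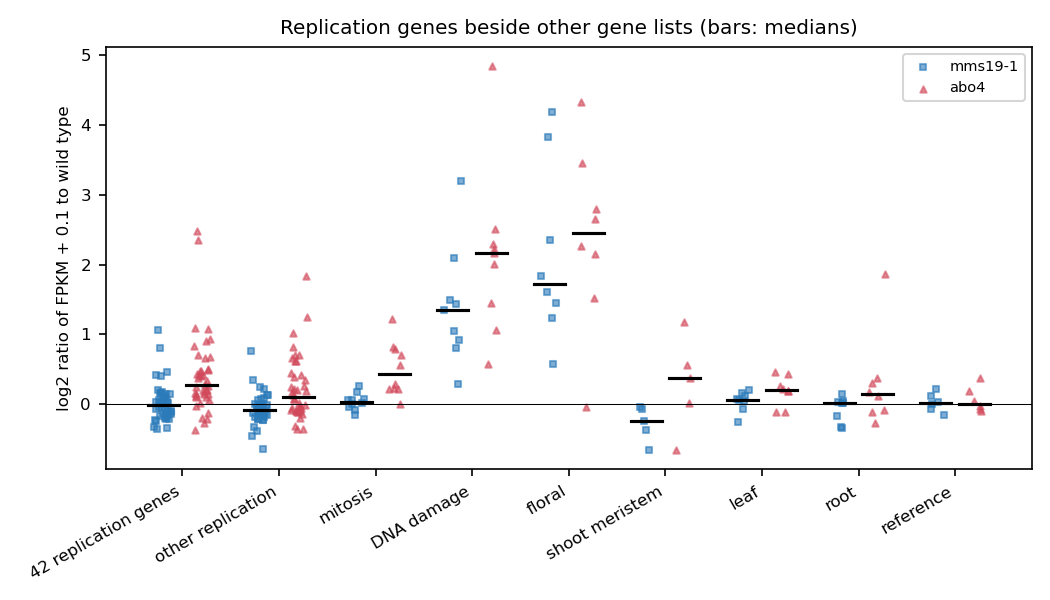
Log2 ratio of FPKM + 0.1 to the wild type for each gene of the 42 replication genes and of 8 other lists (squares, *mms19-1*; triangles, *abo4*; black bars, medians; points are spread sideways at random). The median of the replication genes is 0.28 in *abo4* and -0.01 in *mms19-1*, and those of the DNA damage genes are 2.16 and 1.35.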

How the data were processed

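The authors aligned 45-bp reads to TAIR10 with TopHat2 2.0.12, allowing 2 mismatches, and computed FPKM per gene with Cufflinks 2.0.1 and Cuffdiff. They deposited these FPKM values for 1 library of each genotype. Replicates, per-gene read counts, and the use of strand are not given in the sources used here. Where a locus had several entries, that with the larger mean was kept (574 entries left out). Members and lists were chosen with earlier results of these data known.

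Log2 ratios used FPKM + 0.1, with limits of 2-fold and 1.5-fold and no test. Reads were estimated from FPKM and the effective length of the shortest TAIR10.1 transcript (fragments of 200 ± 80 nt, at least 49 nt). The depth of each library was set where the largest share of low values at short genes came within 0.05 of a whole read. That share was 93.0% to 95.9% at 86 to 98 genes, and it is no separate check of the depth. The 95% exact (Clopper-Pearson) intervals of the ratios rest on the estimated reads. All 1130 gene positions in the study's tables overlapped TAIR10.1. Full values were due for *ABO4*, for genes past 2-fold in any comparison, and for those with the largest or smallest ratio of their role. Of the 40 other replication genes those past 2-fold in a mutant were named, and of each other list the gene with the largest ratio. Further genes in the text were picked with their values in view. Scripts used Python 3.11.15, numpy 2.4.6, pandas 2.3.3, scipy 1.17.1, Biopython 1.88, and matplotlib 3.10.9. The ratio, fold limit, and interval were run on simulated counts with known changes, known depth, and counting error only. That run did not test the estimates of depth and reads. Alternatives were 0.01 or 1 FPKM added, a minimum mean of 1 FPKM, a 4-fold limit, centred ratios, summed entries, and, added later, genes with under 1% of exonic bases in another gene.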

Additional observations from a re-analysis of the deposited data

How the results depend on the processing

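The median log2 ratio of the replication genes stayed between 0.22 and 0.33 in *abo4* against the wild type, between 0.28 and 0.32 in *abo4* against *mms19-1*, and between -0.01 and 0.03 in *mms19-1* against the wild type under every alternative run. The number of genes more than 2-fold higher in *mms19-1* was 1, and became 2 with 0.01 FPKM added (with *POL2B*, at about 3 reads in the wild type), 0 with 1 FPKM added, and 0 at the 4-fold limit. At the 4-fold limit, 2 genes were higher in *abo4* than in the wild type and 0 in *abo4* than in *mms19-1*. With 1 FPKM added, the count higher in *abo4* fell from 4 to 3 against the wild type, where *DEL3* came to a log2 ratio of 0.95, and from 4 to 3 against *mms19-1*, where *CDC45* came to 0.82. Among the 29 genes with under 1% of their exonic bases in another gene, 4 were more than 2-fold higher in *abo4* and 1 in *mms19-1*; this alternative was chosen after seeing the data. No paired analysis was possible because each genotype has 1 library, and for the same reason no library could be left out. Depth limits *POL2B*, with 3 to 14 reads a library, and *ORC1A*, with about 44 reads in its lowest library.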
